A study of Mus musculus with 12 samples.

Results

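The replication-dependent histone genes make up a large family of short, intronless genes, and 70 of the 55291 genes of the count table were taken by their symbols, 9 under the older names (Hist1h4m and the like) and 61 under the newer names (H1f2, H2ac4, H2bc3, H3c2, H4c4 and the like). Of the 70, 66 carry names of the replication-dependent histone clusters, and 65 of them lie there, 55 in Hist1 on chromosome 13 and 10 in Hist2 on chromosome 3. The exception, Hist1h2al, lies elsewhere on chromosome 13 (chr13:51202727-51203065). By class these are 6 H1, 19 H2A, 17 H2B, 12 H3, and 12 H4 genes, and 2 of the H2A genes, Hist1h2al and H2ac14, are annotated as pseudogenes. The other 4, H1f0, H1f7, H1f8, and H1f10, share the H1f name but are replacement linker histones, made outside of S phase, and are described apart. Counts were high enough for a test in 55 members, of which 53 were replication-dependent. Another 9 had 0 counts in all libraries, and 6 had too few counts to be tested.

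RNA was taken from bone marrow Lin-cKit+ (LK) cells, a bead-sorted population of hematopoietic stem and progenitor cells, of 12-month-old C57BL/6 mice of 4 genotypes with 3 mice and 3 libraries each. WT mice carried neither lesion. Kdm6bΔ/+ mice had lost 1 allele of Kdm6b, which encodes an H3K27 demethylase, through the interferon-inducible Mx1Cre after pI:pC injection. Asxl1Y588XTg mice carried a transgene for a C-terminally truncated ASXL1 and were preleukemic, and Asxl1Y588XTg Kdm6bΔ/+ mice carried both; the promoter of the transgene and the treatment of the groups without the deletion are not given in the sources used here for these libraries. The 12 libraries held 14451522 to 23482563 counts on genes (median 17125384.5). The normalized count of Kdm6b was 2142, 2371, and 1869 in WT, 1623, 1529, and 1346 in Kdm6bΔ/+, 2270, 2302, and 2187 in Asxl1Y588XTg, and 1649, 1873, and 1909 in Asxl1Y588XTg Kdm6bΔ/+ libraries. Each deleted genotype lay below its control without overlap, although Kdm6b passed the adjusted threshold in neither comparison (edgeR, adjusted p = 0.279 and 0.0717). All 12 markers of LK cells were detected, led by Mpo, and 10 neutrophil markers held 5.14% to 7.47% of the counts.

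Chromatin is built from nucleosomes, in which DNA is wound around H2A, H2B, H3, and H4, while the linker histone H1 binds where the DNA enters and leaves. The replication-dependent genes supply these proteins when DNA is copied, so their RNA is abundant in cycling cells such as marrow progenitors. Their mRNA ends after a short stem-loop bound by SLBP and carries no poly(A) tail, in contrast to nearly all other mRNAs; the replication-independent variants, such as H3.3, are made throughout the cell cycle from polyadenylated mRNA.

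The stem-loop is the sequence that sets these genes apart, and it is given for 8 members that between them hold all 6 stem-loops found in the family, as read from GENCODE vM21 transcripts (mm10). The stem of 6 base pairs and the loop of 4 bases are in capitals, with 5 flanking bases in lower case, 5′ to 3′ in DNA letters.
H1f2, chr13:23739512-23739527, plus strand: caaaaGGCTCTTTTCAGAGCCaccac
H2ac4, chr13:23751572-23751587, plus strand: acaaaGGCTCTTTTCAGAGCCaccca
H2ac20, chr3:96220418-96220433, minus strand: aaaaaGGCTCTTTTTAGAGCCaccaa
H2bc3, chr13:23747203-23747218, plus strand: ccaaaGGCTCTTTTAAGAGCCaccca
H3c2, chr13:23752820-23752835, plus strand: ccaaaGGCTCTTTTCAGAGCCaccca
H4c4, chr13:23581950-23581965, plus strand: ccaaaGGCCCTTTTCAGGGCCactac
H4c11, chr13:21735437-21735452, plus strand: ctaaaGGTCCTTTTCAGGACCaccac
H4c14, chr3:96262939-96262954, minus strand: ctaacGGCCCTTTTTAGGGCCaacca

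The search took a stem of 6 pairs around a loop of 4 bases that starts with TT. The first side of the stem ran from GG to T and the second from A to CC, and G-T pairs were allowed. Such a stem-loop lay within 100 bases after the last coding base in 41 of the 66 members, or 62.1%. It did so in 7 of the 21883 protein-coding genes that are no members, or 0.032%. Of these 7, Hist3h2a, Hist3h2ba, Hist4h4, H2afx (H2ax), and H2bfm also bear histone names. Many annotated transcripts of the family stop close after the coding sequence and cannot hold it. Among the 28 members with at least 100 annotated bases after the coding end, 23 had it. The stem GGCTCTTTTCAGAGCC was shared by 24 members of H1, H2A, H2B, and H3, and none of the 10 H4 genes with a stem-loop used it. Another 6 members of H1, H2B, and H3 had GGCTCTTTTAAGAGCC, and H2ac20 had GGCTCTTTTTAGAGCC. Of the H4 genes, 6 had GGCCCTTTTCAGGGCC, 2 (H4c9 and H4c14) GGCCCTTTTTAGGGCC, and 2 (H4c2 and H4c11) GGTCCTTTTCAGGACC. Transcripts that stop close after the coding sequence also leave little room for the polyadenylation signal AATAAA, which was searched in their last 50 bases. The 12 members with it were all among the 28 with at least 100 annotated bases after the coding end. Of the 21951 protein-coding genes, 20201 had that many. Without regard to this limit, it was present in 18.2% of the 66 members, 69.5% of protein-coding genes, and 88.9% of 9 replication-independent histone genes. Of those 9, only H2ax, whose gene is known to give both kinds of mRNA, had a stem-loop.

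Promoters of the core histone genes also share short elements, which were searched on both strands in RefSeq windows (GRCm38.p6) from 250 bases before to 50 bases after the start site, for 51 matched replication-dependent genes with 52 windows. CCAAT was found in 88.5% of them against 37.4% of 32851 windows of all genes, and TATAAA in 57.7% against 13.6%. All H1, H2A, H2B, and H3 windows held CCAAT, but only 33.3% of the H4 windows did. The octamer ATTTGCAT, the element bound by OCT1, was found in 13 of the 52 windows against 1.74% of all windows. Each motif was counted apart from the others, and a match is a description of the sequence only. It occurred in 53.8% of the H2B and 42.9% of the H2A windows, and in none of the H1, H3, and H4 windows. Divergent H2A and H2B neighbors can share 1 octamer between their start sites, as H2ac8 and H2bc8 do, while H2bc3 has its own; both are given with the octamer in capitals on the strand of the H2B gene.
H2bc8, chr13:23571341-23571348: gagtcccttATTTGCATagaacctct
H2bc3, chr13:23746644-23746651: gagtctcttATTTGCATaaagccttt

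The members were among the most abundant RNAs of these libraries. Levels are given as CPM, the count scaled to the depth of the library, per kb of exon. The median of the 66 was 139 CPM per kb, against 4.06 for all tested genes, 22.3 for 11 replication-independent histone genes (H1f0 and H1f10 among them), 28.9 for 37 S phase genes, and 328 for 12 abundant polyadenylated mRNAs. In the top 1% of the tested genes with a known length, 157 genes, there were 28 members. The top 5%, 783 genes, held 38. The median level of the family thus lay between that of the 37 S phase genes and that of the 12 listed abundant mRNAs. Those 12 ranged from 7.97 (Ppia) to 3595 (Actb), and the 11 replication-independent genes from 1.34 (Macroh2a2) to 269 (H2ax). Sequence shared with other genes was examined for the members only, and the part of shared reads in these reference levels was not tested.

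Within the classes the level per kb of exon was led by H1f5 (1063 CPM per kb), H1f2 (901), and H1f1 (838), by H2bc3 (1001), H2bc8 (631), and H2bc11 (549), and by H4c12 (935), H4c8 (885), and H4c4 (778). The highest H3 genes, H3c2, H3c3, and H3c6, had 370, 357, and 331 CPM per kb. The highest H2A genes, H2ac4, H2ac15, and H2ac20, had 289, 192, and 139. Class medians were 635 for H1, 358 for H4, 174 for H2B, 173 for H3, and 4.73 for H2A. The order depends on the length used, since annotated exons of some members run far beyond the coding part (7425 bases against 663 coding bases in H1f3). Per kb of coding length H4c4 (2865) and H1f2 (2210) came first, and H4c8 (1346) and H2bc3 (1345) followed H1f3 (1625).

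**Figure D1:**
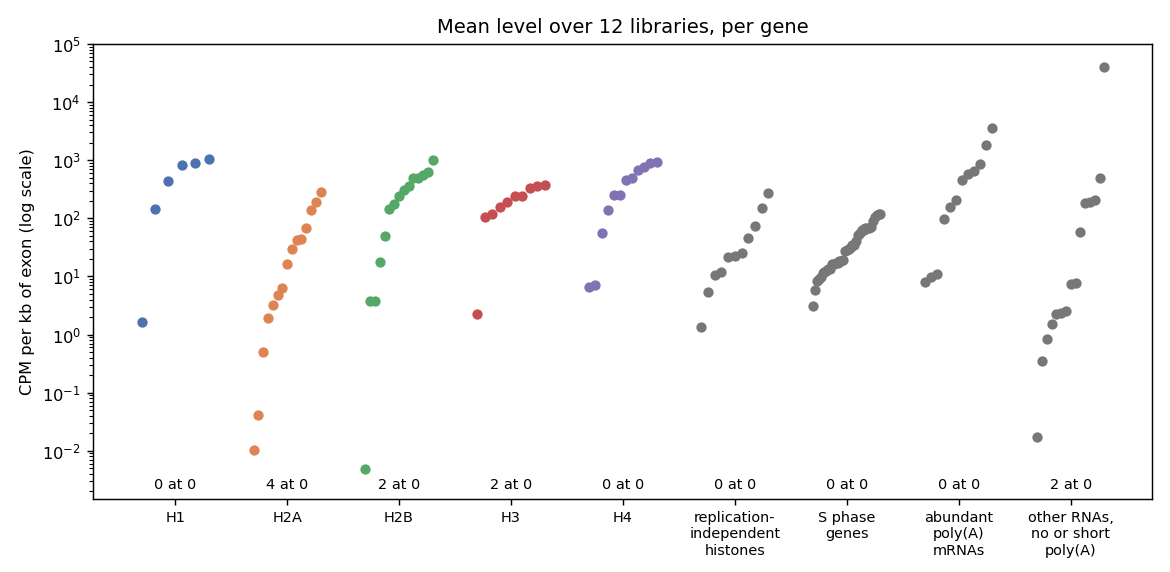
Mean level over the 12 libraries of each gene, in CPM per kb of exon on a log scale, with each point 1 gene and the genes of a set ordered by level; the number of genes at 0 is printed under each set. Most H1, H2B, H3, and H4 genes lie above the S phase median and near the abundant poly(A) mRNAs, while H2A genes spread down to single counts.

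These counts bear on how the RNA was selected, a point on which the sources differ: the methods of the study name a stranded kit with ribosomal RNA depletion, whereas the sample labels name another kit and neither states a poly(A) step. RNA that lacks a poly(A) tail was plainly counted. The small nuclear RNA Rn7sk, a polymerase III transcript without a tail, reached 40446 CPM per kb and took 0.828% to 1.77% of all counts in a library. The replication-dependent members took 1.07% to 1.45%. Small nucleolar and Cajal body RNAs, which also lack a tail, had a median of 0 CPM per kb, with 78 of 144 at 0 and a highest value of 681 (Scarna2). The part of RNA length in these values was not tested. A set of 17 further RNAs with no or only a short tail, in which Rn7sk is included, had a median of 2.59. The ratio of replication-dependent to replication-independent histone counts (9 genes) was 7.15, 7.24, and 7.98 in WT, 7.89, 9.25, and 7.31 in Kdm6bΔ/+, 7.22, 7.41, and 6.80 in Asxl1Y588XTg, and 7.56, 8.34, and 8.61 in Asxl1Y588XTg Kdm6bΔ/+ libraries. No library stood apart as depleted of histone mRNA. Between the lowest and the highest library the share of the members differed 1.35-fold, compared with 2.14-fold for Rn7sk, 4.03-fold for Rmrp, 5.11-fold for Rpph1, and 1.48-fold for Malat1. The part of RNA selection in differences between libraries was not tested.

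Members differ in how much sequence is their own, and H2A genes had the least. A median of 50.4% of the 50-base windows of a member's transcripts occurred in no other gene, with 98.9% for H1, 60.1% for H4, 55.9% for H2B, 42.8% for H3, and 21.1% for H2A. The 32 members with under 50% unique windows had a median of 25.9 CPM per kb, and the other 34 had 160. The medians hide a wide spread, since 14 members with under 50% unique windows were above 100 CPM per kb, such as H4c12 (28.5% unique, 935 CPM per kb) and H2bc13 (17.2%, 485). Within H2A, the 14 genes under 50% had a median of 2.62 and the other 5 of 29.6. All 19 H2A genes also overlapped another annotated gene, which in most cases lay on the other strand. How reads that match several genes were counted is not given in the sources used here, so the low H2A share is a value of this count table, and the part of shared reads in it was not tested. Of the 8 replication-dependent members at 0, 5 had under 50% unique windows (H2ac18, H2ac19, Hist1h2ap, Hist1h2br, and H3c13). The other 3 did not, namely H2ac1, a testis-specific H2A, H2bc18, and H3c14. However, H2bc18 and H3c14, like H2ac18, overlapped another annotated gene on the same strand. Such an overlap was found in 6 replication-dependent members, and H1f4, H2ac6, and H2bc6 among them had counts. The part of this overlap in the counts was not tested. The 38 members with at least 50% unique windows, the replacement genes included, held 81% of all member counts.

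**Figure D2:**
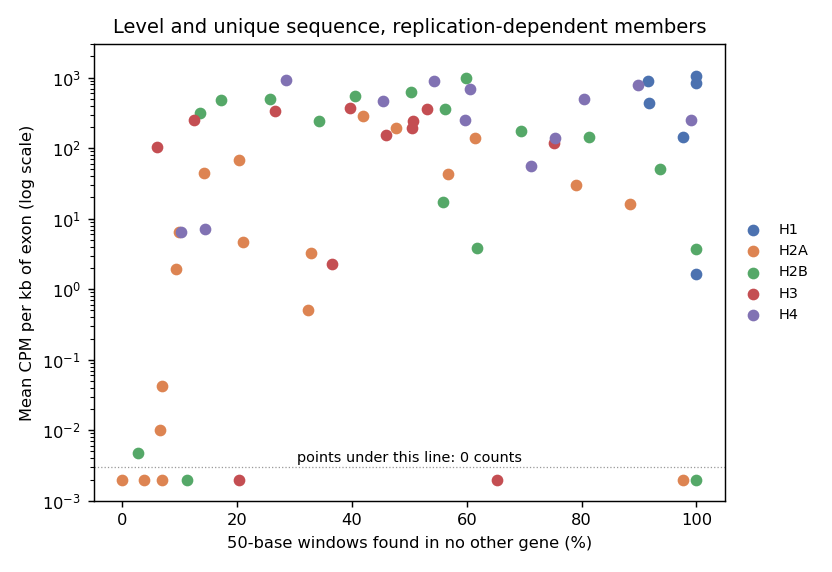
Mean level of each replication-dependent member (CPM per kb of exon, log scale) against the share of its 50-base windows that occur in no other annotated gene, colored by class; points under the dotted line had 0 counts. H1 genes lie at the right with mostly unique sequence, and the 4 lowest counted points are H2A and H2B genes at the left.

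By class, the counts of the members divided alike in all libraries. H1 genes took 35.4% to 39.5% of the replication-dependent counts (median 38.3%), H4 23.7% to 27.4%, H2B 20.3% to 22.6%, H3 11.5% to 12.7%, and H2A 3.10% to 3.68%. H1 led in every library, with H1f2 the member of the highest counts, and the ranges of the 5 classes did not overlap. These are shares of counts and not of molecules, since longer transcripts collect more reads.

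The summed normalized count of the 66 members was 207498, 211779, and 223819 in WT, 237721, 258672, and 224259 in Kdm6bΔ/+, 191300, 214975, and 181956 in Asxl1Y588XTg, and 217676, 230127, and 243187 in Asxl1Y588XTg Kdm6bΔ/+ libraries. Every Asxl1Y588XTg Kdm6bΔ/+ library lay above every Asxl1Y588XTg library, and every Kdm6bΔ/+ library above every WT library, in the latter case by a narrow margin (224259 against 223819). As a share of all counts, without TMM scaling, the first separation held (1.26% to 1.38% against 1.07% to 1.22%), while Kdm6bΔ/+ (1.26% to 1.45%) and WT (1.18% to 1.28%) overlapped. The ratio of the means was 1.17 for Asxl1Y588XTg Kdm6bΔ/+ to Asxl1Y588XTg and 1.12 for Kdm6bΔ/+ to WT. It was 0.915 for Asxl1Y588XTg to WT, 1.07 for Asxl1Y588XTg Kdm6bΔ/+ to WT, and 0.959 for Asxl1Y588XTg Kdm6bΔ/+ to Kdm6bΔ/+, with overlap in each. With 3 mice per genotype an exact permutation test of such a sum cannot give a p below 0.1, so none was made. In bulk RNA, fewer cells in S phase and less histone RNA per cell cannot be told apart.

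Within the classes, H2B showed the widest gap between the genotypes with the transgene, with 39293, 46910, and 36995 in Asxl1Y588XTg and 49289, 51156, and 53022 in Asxl1Y588XTg Kdm6bΔ/+ libraries (ratio 1.25). H3 followed with a ratio of 1.23, then H2A with 1.18, H4 with 1.17, and H1 with 1.12. The groups did not overlap in H1, H2B, and H3 but did in H2A and H4. Asxl1Y588XTg replicate 2 had the highest sum of its genotype in all 5 classes. Of all counts, the 70 members held 1.22% ± 0.06 in WT, 1.34% ± 0.10 in Kdm6bΔ/+, 1.14% ± 0.08 in Asxl1Y588XTg, and 1.31% ± 0.06 in Asxl1Y588XTg Kdm6bΔ/+ libraries (mean ± SD, n = 3).

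**Figure D3:**
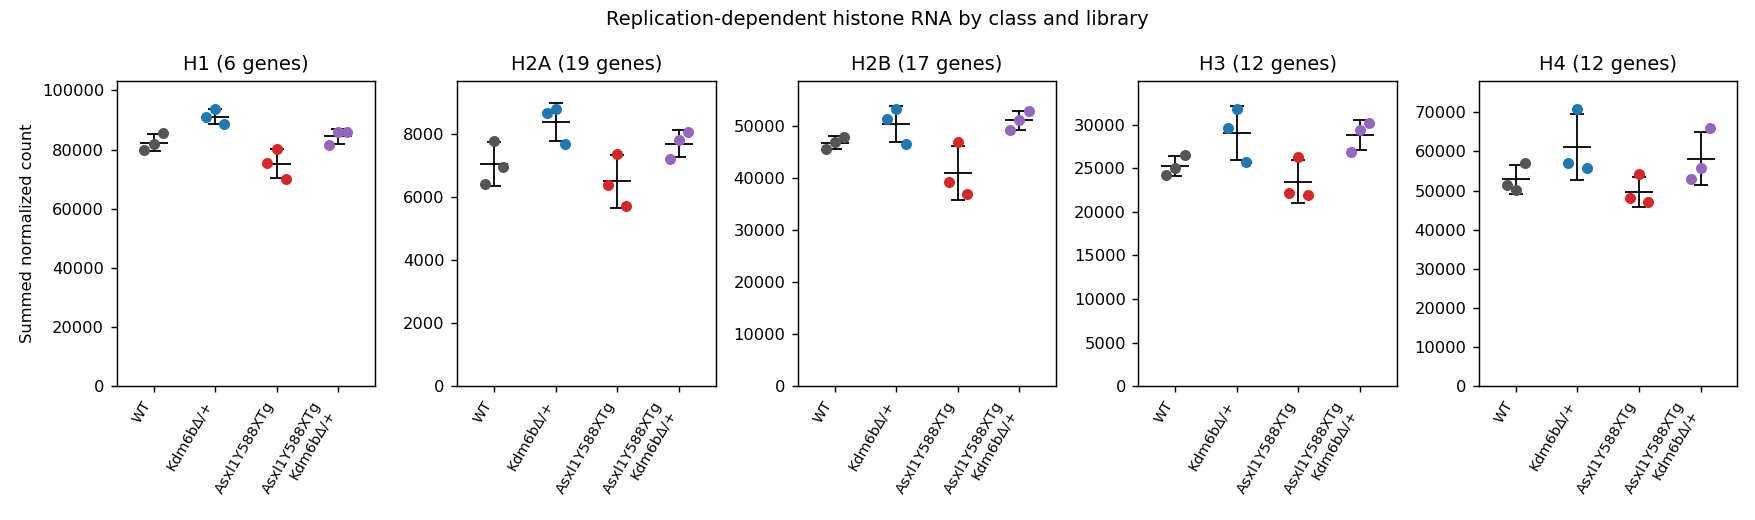
Summed normalized count of the replication-dependent genes of each class; each point is 1 library, in the order of the replicate numbers, with the mean and SD of the 3 libraries of a genotype. In H1, H2B, and H3 all Asxl1Y588XTg Kdm6bΔ/+ libraries lie above all Asxl1Y588XTg libraries, and the scale differs between panels.

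The comparison of Asxl1Y588XTg Kdm6bΔ/+ with Asxl1Y588XTg mice sets cells with and without the loss of 1 Kdm6b allele side by side, both with truncated ASXL1. Here the histone genes differed together by small amounts. Of the 53 tested replication-dependent members, 51 had a log2 fold change above 0, with a median of 0.30 against -0.004 over all tested genes. The class medians were 0.20 for H1, 0.32 for H2A, 0.29 for H2B, 0.33 for H3, and 0.21 for H4. None was called (adjusted p under 0.05 and a fold change above 1.5) by edgeR or by DESeq2, which called 1.74% and 2.82% of all genes. An unadjusted p under 0.05 was reached by 32 of the 53 in the direction of higher counts (5.64% of all genes) and by 0 in the other (9.81%). Of the replacement genes, H1f0 did so with a log2 fold change of -0.54 ± 0.12 (SE; adjusted p = 0.0693). In 17 members all Asxl1Y588XTg Kdm6bΔ/+ libraries lay above all Asxl1Y588XTg libraries (7.12% of all genes), among them 6 of 10 H3 genes, and the reverse held for H1f0 alone (14.1%). The count of 32 fell to 15 without Asxl1Y588XTg replicate 3 and to 21 without replicate 1.

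H2bc3 and H2bc7, both encoding replication-dependent H2B, passed the adjusted threshold, which 0.259% of all genes passed in this direction at any fold change, and both had a fold change under 1.5. H2bc3 (chr13:23746734-23747241, a single exon) had a normalized count of 7643, 7465, and 5904 in Asxl1Y588XTg and of 9329, 10142, and 10875 in Asxl1Y588XTg Kdm6bΔ/+ libraries, without overlap. Its log2 fold change was 0.55 ± 0.11 (adjusted p = 0.0326). For H2bc7, which is named because of its value, the counts were 1584, 1935, and 1513 against 2102, 2304, and 2329, and the log2 fold change was 0.44 ± 0.09 (adjusted p = 0.0432). DESeq2 gave an adjusted p under 0.05 for 15 of the 55 tested members and 3.94% of all genes in this comparison. In edgeR with 1 library left out the number of such members ranged from 0 (without Asxl1Y588XTg Kdm6bΔ/+ replicate 2 or 3) to 11 (without Asxl1Y588XTg replicate 2), with 0.411%, 1.89%, and 1.47% of all genes in these 3 fits. Members above 1.5-fold were then called as well, 5 without Asxl1Y588XTg replicate 1 and 2 without replicate 2, H2bc3 in both cases, where 1.33% and 1.22% of all genes were called.

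Among the highest expressed genes of the other classes the same comparison gave 0.31 ± 0.08 for H1f5, 0.34 ± 0.11 for H2ac4, 0.32 ± 0.09 for H3c2, and 0.39 ± 0.09 for H4c12, each without overlap between the groups and each with an adjusted p above 0.05 (0.0911, 0.167, 0.109, and 0.0653). H1f2 gave 0.11 ± 0.08, and its groups overlapped. The largest positive values belonged to genes of low counts, namely Hist1h4m (0.98 ± 0.42), H2ac11 (0.97 ± 0.33), H2ac12 (0.85 ± 0.43), and H3c15 (0.67 ± 0.28), and to H2bc15 (0.76 ± 0.23). Adjusted p ranged from 0.185 to 0.382 over these 5. The lowest values besides H1f0 were those of H4c9 (-0.48 ± 0.33), H1f10 (-0.38 ± 0.23), Hist1h4n (-0.12 ± 0.34), and H2ac15 (0.03 ± 0.09), none past the threshold.

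In Asxl1Y588XTg against WT cells, the values lay mostly on the other side of 0. Of the 53, 45 had a log2 fold change below 0, with a median of -0.13 against -0.01 over all genes. The call went to 1 member, the replacement linker histone H1f0 (1.61% of all genes were called), and to 0 replication-dependent members. H1f0 had 597, 778, and 700 normalized counts in WT and 1059, 1459, and 1156 in Asxl1Y588XTg libraries, so that the groups did not overlap. Its log2 fold change was 0.82 ± 0.14 (adjusted p = 0.0173), and the adjusted p was 0.0950 without WT replicate 3 and 0.0672 without Asxl1Y588XTg replicate 2. In Asxl1Y588XTg Kdm6bΔ/+ libraries H1f0 had 747, 857, and 903.

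At an unadjusted p under 0.05, 9 replication-dependent members were lower (2.05% of all genes) and only H1f0 was higher (7.3%). The 9 were H1f5, H1f6, H2bc3, H2bc15, H3c2, H3c3, H3c11, H4c11, and H4c12. All Asxl1Y588XTg libraries lay below all WT libraries in 10 members (5.23%) and above them in H1f0 (10.5%). The number 9 became 17 without Asxl1Y588XTg replicate 2, 2 without replicate 3, and 5 without replicate 1 or without WT replicate 3. The lowest values were those of H1f6 (-1.06 ± 0.46), a testis-specific H1 with at most 48 normalized counts in a library, Hist1h4m (-0.87 ± 0.46), H2bc15 (-0.74 ± 0.19), H3c15 (-0.69 ± 0.35), and H2bc3 (-0.37 ± 0.10). H2bc15 was called besides H1f0 by DESeq2, which called 2.98% of all genes. On the positive side were H4c9 (0.55 ± 0.29), H2ac7 (0.40 ± 0.44), Hist1h4n (0.20 ± 0.44), and H2ac21 (0.19 ± 0.27), each with overlapping groups.

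In Kdm6bΔ/+ against WT cells, without the transgene, 50 of the 53 had a log2 fold change above 0, with a median of 0.19 against -0.003. As the treatment of the undeleted mice is not given, the deletion and its induction by Mx1Cre and pI:pC cannot be told apart on either background. No member was called by edgeR or DESeq2 (0.0948% and 0.246% of all genes). An unadjusted p under 0.05 was found for 13 replication-dependent members in the higher direction (1.3%) and for H1f10 in the lower (2.19%). All Kdm6bΔ/+ libraries lay above all WT libraries in 14 members (4.14%), and below them in H1f10 alone (4.8%). The 13 became 6 without WT replicate 1, 7 without Kdm6bΔ/+ replicate 1 or 2, and 23 without Kdm6bΔ/+ replicate 3. H2ac6 was called without WT replicate 2 (0.114% of all genes). H2ac4 (0.33 ± 0.10), H1f5 (0.26 ± 0.09), and H4c12 (0.27 ± 0.10) were among the 13. The extremes were H2ac12 (1.53 ± 0.64) and Hist1h4n (1.21 ± 0.38) on one side, and H1f10 (-0.56 ± 0.25) and Hist1h4m (-0.34 ± 0.33) on the other. Both comparisons of Kdm6b-deleted with undeleted mice use separate libraries, so these values were measured independently of those on the transgenic background.

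Asxl1Y588XTg Kdm6bΔ/+ against WT gave a smaller difference. A log2 fold change above 0 was found in 44 of the 53, with a median of 0.13 against -0.0003. No member was called by edgeR or DESeq2 (0.215% and 0.72% of all genes). An unadjusted p under 0.05 was found for 12 members in the higher direction, H1f0 and 11 replication-dependent genes (3.73%), and for 0 in the lower (3.06%). The number 12 became 4 without WT replicate 1 and 5 without Asxl1Y588XTg Kdm6bΔ/+ replicate 3. H2ac6 was again called without WT replicate 2 (0.316% of all genes). The groups were apart in 13 members with higher counts (6.68%) and in 2 with lower counts, H1f6 and H1f10 (6.86%). By class, 5 of 10 H3 genes were among the 12, with H3c7 at 0.43 and H3c8 at 0.36, and 0 of 6 replication-dependent H1 genes. The extremes were H2ac7 (0.94 ± 0.40), H2ac12 (0.86 ± 0.62), H1f6 (-0.63 ± 0.44), and H1f10 (-0.34 ± 0.20).

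Asxl1Y588XTg Kdm6bΔ/+ against Kdm6bΔ/+, the effect of the transgene in deleted cells, had a median of -0.05 against 0.002, with 36 of 53 below 0. No member was called by edgeR (0.0948%), while DESeq2 called Hist1h4n (0.657%). Unadjusted p was under 0.05 for 8 members in the lower direction (5.67%) and for H2ac10 in the higher (6.54%), and the 8 became 4 without Asxl1Y588XTg Kdm6bΔ/+ replicate 1. The groups were apart downward in 8 (9.61%) and upward in 1 (9.31%). Hist1h4n (-1.15 ± 0.30) and H2ac13 (-0.89 ± 0.31) were lowest, and Hist1h4m (0.43 ± 0.27) and H2ac10 (0.30 ± 0.12) highest. The 5 comparisons share libraries, and their values are therefore not independent of one another.

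**Figure D4:**
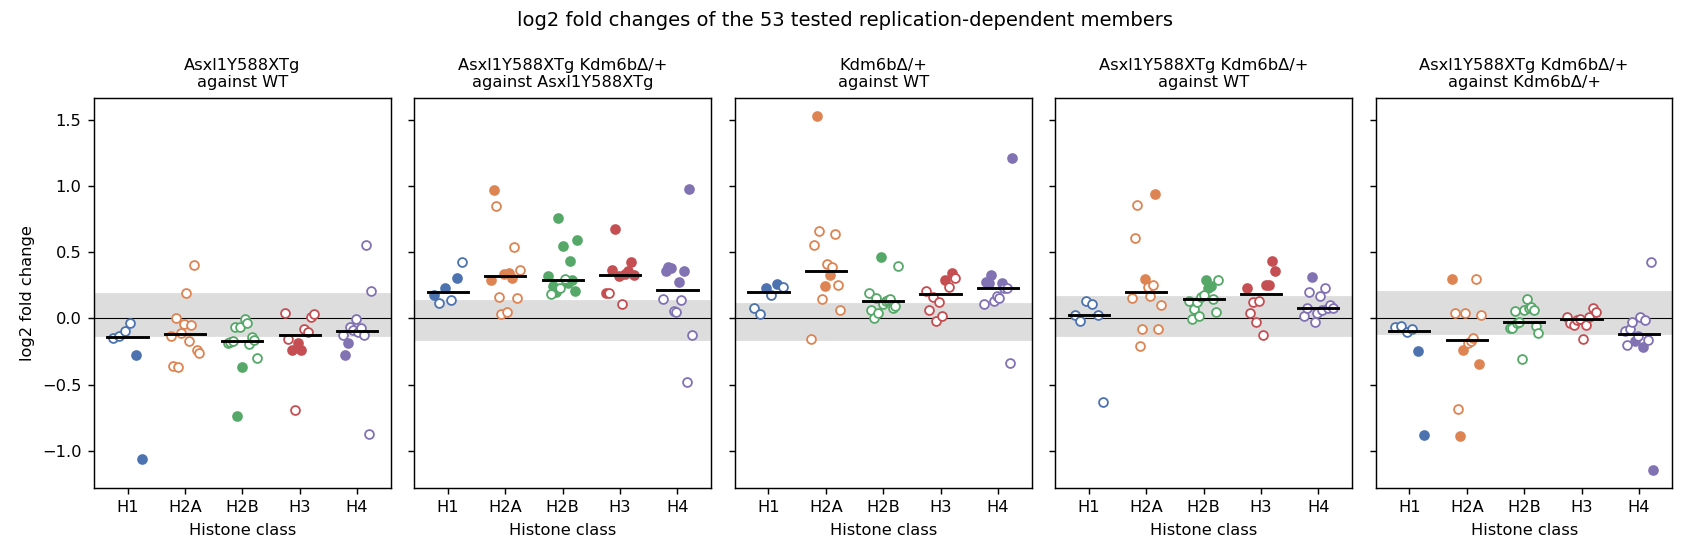
log2 fold change (y axis) of each tested replication-dependent member by class in the 5 comparisons; filled points had an unadjusted p under 0.05 in edgeR, black bars are class medians, and the gray band spans the middle 50% of all tested genes. In Asxl1Y588XTg Kdm6bΔ/+ against Asxl1Y588XTg all 5 class medians lie above the band, and in Asxl1Y588XTg against WT all 5 lie below 0.

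Whether the difference between deleted and undeleted mice was unlike on the 2 backgrounds was tested by the interaction over all 12 libraries. No member was called by edgeR or DESeq2 (0.0126% and 0.417% of all genes). The median of the 53 was 0.07 against -0.02 over all genes. At an unadjusted p under 0.05, 5 members were higher, H2bc3, H2bc7, H2bc15, H2ac10, and Hist1h4m (2.15%), and 2 were lower, H1f0 and Hist1h4n (4.72%). The number of 5 ranged from 2 to 10 when 1 library was left out, with 10 without Asxl1Y588XTg replicate 2. With no expression filter 4 members were called, H1f0, H2bc1, H2bc15, and H4c9, beside 0.789% of all genes. On simulated data the interaction called 26% of 1.5-fold, 76% of 2-fold, and 96% of 4-fold changes, where the 1.5-fold changes lay on the cutoff of a call. It also called 12 unchanged genes, whereas 2 of all genes were called by edgeR in the data.

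Among the genes that act around the histone genes, 17 tested genes of histone mRNA transcription and 3′ processing, 13 histone chaperones, and 37 S phase genes, 0 were called by edgeR or DESeq2 in each of the 5 comparisons and in the interaction. Of all genes, edgeR called 0.0126% to 1.74% and DESeq2 0.246% to 2.98% in these fits. At such shares, lists of this size can hold 0 calls without differing from other genes. The lists had in Asxl1Y588XTg Kdm6bΔ/+ against Asxl1Y588XTg medians of 0.009, -0.002, and 0.04, and an unadjusted p under 0.05 was found in 0, 0, and 5 genes, the 5 in the higher direction. Slbp, whose product binds the stem-loop, had a log2 fold change of 0.10 ± 0.07 there, and Npat, the transcriptional coactivator of histone loci, of 0.003 ± 0.07. The summed S phase genes differed 1.02-fold with overlapping groups, beside the 1.17-fold of the histone genes.

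In 3 of the other comparisons the S phase genes lay on the same side of 0 as the histone genes. In Asxl1Y588XTg against WT 36 of 37 were below 0 with a median of -0.10, beside the -0.13 of the members, and in Kdm6bΔ/+ against WT 31 of 37 were above 0 with a median of 0.07, beside 0.19. They parted in Asxl1Y588XTg Kdm6bΔ/+ against WT, with 30 of 37 S phase genes below 0 (median -0.07) and a member median of 0.13. In Asxl1Y588XTg Kdm6bΔ/+ against Kdm6bΔ/+ 33 of 37 S phase genes were below 0 (median -0.14), 9 with an unadjusted p under 0.05 against 5.67% of all genes in this direction, and in 18 of 37 the groups were apart downward against 9.61%. Of the 13 chaperones, 13 were below 0 there (median -0.11), 3 with an unadjusted p under 0.05. The sums of both lists lay below without overlap, 0.910-fold and 0.924-fold, beside 0.959-fold with overlap for the histone genes. The part of cell cycle differences in the histone values was not tested.

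Replication-independent variants had a median near 0 in Asxl1Y588XTg Kdm6bΔ/+ against Asxl1Y588XTg, 0.05 over 11 genes, and their sum differed 1.01-fold with overlap. H3f3a, which encodes H3.3, had 0.41 ± 0.13 (adjusted p = 0.177), whereas H3f3b, the second H3.3 gene, had -0.01 ± 0.11. H2az1 had 0.28 ± 0.23 and H2ax 0.12 ± 0.10. The 4 tested histone genes known to also give polyadenylated RNA, the members H1f2, H2bc4, and H2bc21 and H2aw outside the naming rule, had a median of 0.17 there, and an unadjusted p under 0.05 was found in 0 of them.

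Markers of other cell types differed between the same genotypes. The summed normalized count of 7 megakaryocyte markers, of which 6 were over 1 CPM and 0 were at 0, was 2823, 1594, and 2852 in WT, 1874, 1998, and 1612 in Kdm6bΔ/+, 6480, 12847, and 4905 in Asxl1Y588XTg, and 4639, 3041, and 4222 in Asxl1Y588XTg Kdm6bΔ/+ libraries, which is 3.33-fold higher in Asxl1Y588XTg than in WT. In Asxl1Y588XTg Kdm6bΔ/+ this sum was 0.491-fold that of Asxl1Y588XTg and 2.17-fold that of Kdm6bΔ/+, each without overlap. Mature B cell markers were 0.549-fold with overlap and 0.397-fold without overlap in these 2 comparisons. Neutrophil markers differed 0.899-fold in Asxl1Y588XTg against WT and 1.11-fold in Asxl1Y588XTg Kdm6bΔ/+ against Asxl1Y588XTg, both with overlap. Of the LK markers Gata2 was called in the 2 comparisons given for neutrophil markers (0.73 ± 0.13 and -1.02 ± 0.12), where 1.61% and 1.74% of all genes were called. The part of cell composition in the histone values was not tested. Of the other markers and reference RNAs, Hba-a2 was called in Kdm6bΔ/+ against WT (-1.44, with 0.0948% of all genes called). Hba-a2, Alas2, Hbb-bt, Ppbp, and mt-Rnr1 were called in Asxl1Y588XTg Kdm6bΔ/+ against WT (-2.20, -1.49, -1.11, 2.49, and 0.78, with 0.215%). Itga2b was called in Asxl1Y588XTg Kdm6bΔ/+ against Kdm6bΔ/+ (0.68, with 0.0948%). The sum of 11 erythroid markers, which include Hba-a2, Alas2, and Hbb-bt, was 0.829-fold in Kdm6bΔ/+ against WT. It was 0.704-fold in Asxl1Y588XTg Kdm6bΔ/+ against WT, and the groups overlapped in both.

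In 2 libraries, Asxl1Y588XTg replicates 2 and 3, a few genes of the Hist1 cluster stood apart from the rest of the family, and they are named here because of their values. H2bc1, the testis-specific H2B gene (chr13:23933773-23934156), had 144 and 124 counts there against 0 to 10 in the other 10 libraries. H4c9 (chr13:22040636-22041362) had a normalized count of 1181 and 974 in these libraries against 495 in the third Asxl1Y588XTg library, and at most 759 elsewhere. H2bc15 (chr13:21754123-21754503) went the other way with 1320 and 993 there against 1831 in Asxl1Y588XTg replicate 1 and at least 2184 in every library of the other genotypes. Hist1h4m (chr13:21811746-21812147), a gene of low counts, had 18.1 and 18.2 there and 35.2 to 71.2 in the others. H2bc15 and Hist1h4m have 13.6% and 10.2% unique windows, so reads of near-identical neighbors may have been assigned to or taken from them, while H2bc1 and H4c9 have 61.8% and 71.1%. Neither the litter of the mice nor their sequence at this locus was examined, and a cause was not tested. With Asxl1Y588XTg replicate 1 left out, H4c9 and H2bc15 were called both against WT (0.84 and -0.99) and in Asxl1Y588XTg Kdm6bΔ/+ against Asxl1Y588XTg (-0.76 and 1.02). In these fits 0.739% and 1.33% of all genes were called. As both genes were named for standing apart in replicates 2 and 3, these calls add no support. Against WT their adjusted p in edgeR was 0.952 and 0.421 without replicate 2, and 0.913 and 0.151 without replicate 3.

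**Figure D5:**
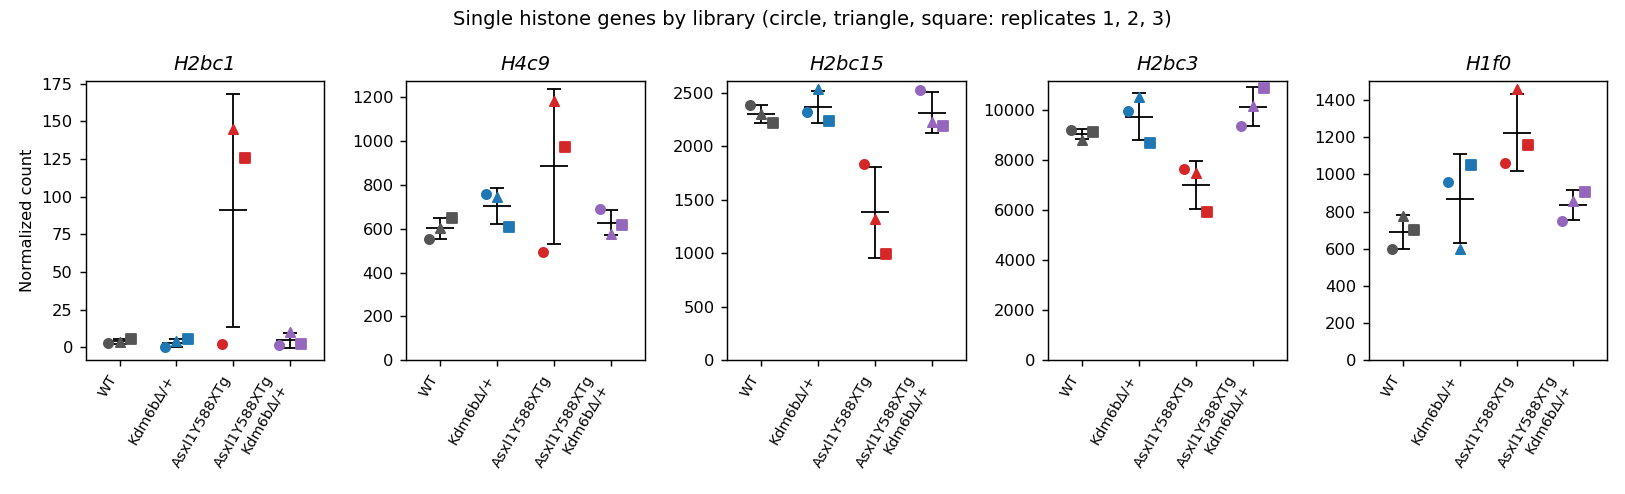
Normalized count (y axis, from 0, a different scale in each panel) of 5 histone genes in each of the 12 libraries, with the mean and SD of each genotype and a symbol for each replicate number. Replicates 2 and 3 of Asxl1Y588XTg (triangle and square) stand apart from the other libraries in H2bc1 and H4c9 upward and in H2bc15 downward, while H2bc3 and H1f0 differ between the genotypes.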

How the data were processed

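Total RNA of LK cells from individual mice was sequenced by the authors with 50-base reads. They trimmed the reads with Trimmomatic, aligned them to mm10 with STAR, and deposited raw counts per gene made with HTSeq; the annotation, the strand setting, and the treatment of reads matching several genes are not given in the sources used here. Columns were matched to the samples by the abbreviations in their names. Exon lengths (96.9% of genes), coding ends, stem-loops, and shared 50-base windows were read from GENCODE vM21, and promoters from RefSeq. No genome sequence or protein table was used.

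Tests used edgeR 4.0.16 (robust quasi-likelihood, TMM scaling, filterByExpr by genotype, 15825 genes kept) in R 4.3.3 on the 6 libraries compared, or all 12 for the interaction. All kept genes entered the Benjamini-Hochberg adjustment. A call needed an adjusted p under 0.05 together with more than 1.5-fold. Normalized counts were scaled from the TMM library size to the mean depth. Values are log2 fold changes ± SE, and p-values cover the spread between these mice. On simulated data for Asxl1Y588XTg against WT (15825 genes) 54%, 82%, and 99% of 1.5-, 2-, and 4-fold changes were called, and so were 7 unchanged genes. The changed genes were drawn from those with a mean count of at least 50. Simulated 1.5-fold changes lay on the cutoff of a call.

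Replicate numbers are shared between genotypes but did not pair the libraries. DESeq2 1.42.0, RLE scaling, 1 fit over 12 libraries, other count filters, the replicate block, and leaving out each library were alternatives; coding length in place of exon length, and counts at unadjusted p, were added after seeing the data. Named genes were the 3 highest of each class, called genes, the 5 largest rises and falls in the first 2 comparisons and the 2 largest in the others, and fixed regulators and reference genes. Of the called list genes, 1 is not reported here. The members and lists were chosen with earlier results of these data known.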

Additional observations from a re-analysis of the deposited data

How the results depend on the processing

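The medians of the tested members kept their sign under all alternatives run, and when 1 library was left out they ranged from -0.21 to -0.07 in Asxl1Y588XTg against WT, from 0.22 to 0.36 in Asxl1Y588XTg Kdm6bΔ/+ against Asxl1Y588XTg, from 0.15 to 0.26 in Kdm6bΔ/+ against WT, from 0.09 to 0.17 in Asxl1Y588XTg Kdm6bΔ/+ against WT, and from -0.10 to -0.02 in Asxl1Y588XTg Kdm6bΔ/+ against Kdm6bΔ/+. Counts of called members were less stable. In Asxl1Y588XTg against WT, 2 were called with DESeq2, with 1 fit over all libraries, and with no expression filter (H1f0 and H2bc15 each time). In these fits 2.98%, 2.82%, and 2.05% of all genes were called. With 1 library left out, 0 to 3 members were called, beside 0.695% to 1.59% of all genes. In Asxl1Y588XTg Kdm6bΔ/+ against Asxl1Y588XTg, 1 was called with 1 fit over all libraries (H2bc15, with 1.02% of all genes) and 2 with no filter (Hist1h2bp and Hist1h4m, with 2.62%). Without 1 library 0 to 5 were called, beside 0.354% to 1.73% of all genes. The 5 were called without Asxl1Y588XTg replicate 1 (H1f0, H2bc3, H2bc15, H4c9, and Hist1h4m, with 1.33%), and 2 without replicate 2 (H2bc3 and Hist1h2bp, with 1.22%). H2ac6 was the 1 member called without WT replicate 2 in Kdm6bΔ/+ against WT and in Asxl1Y588XTg Kdm6bΔ/+ against WT (0 to 1 in each). In these 2 fits 0.114% and 0.316% of all genes were called. In Asxl1Y588XTg Kdm6bΔ/+ against Kdm6bΔ/+, 1 was called with DESeq2 and with no filter (Hist1h4n, with 0.657% and 0.691% of all genes). In the interaction 4 were called with no filter (H1f0, H2bc1, H2bc15, and H4c9, with 0.789% of all genes). The causes were not tested. With the mostly unique members alone, the share of all counts was 0.986% in WT, 1.09% in Kdm6bΔ/+, 0.934% in Asxl1Y588XTg, and 1.06% in Asxl1Y588XTg Kdm6bΔ/+ libraries. Values near 0 changed sign in some settings. In Asxl1Y588XTg Kdm6bΔ/+ against Asxl1Y588XTg, H3f3b became 0.0016 with RLE scaling and with DESeq2, and Npat -0.013 with 1 fit over all libraries. With 1 library left out, Hist1h4n ranged from -0.31 to 0.30, H2ac15 from -0.014 to 0.13, Npat from -0.056 to 0.047, H2az1 from -0.039 to 0.44, and H3f3b from -0.13 to 0.086 in that comparison, and Hist1h4n ranged from -0.21 to 0.51 and H2ac21 from -0.093 to 0.45 in Asxl1Y588XTg against WT. Libraries with the same replicate number did not deviate together (r from -0.12 to 0.08 over 18 pairs, with 0 above 0.1, against -0.14 to 0.18 over 36 other pairs). With the number as a replicate block the medians were -0.13 in Asxl1Y588XTg against WT and 0.31 in Asxl1Y588XTg Kdm6bΔ/+ against Asxl1Y588XTg, H1f0 stayed the 1 called member, and no other member was called; genes called overall went from 255 to 101 and from 275 to 71. With 3 mice a genotype, 54% of simulated 1.5-fold changes were called. Since a call needs more than 1.5-fold, these changes lay on the cutoff, and the 54% reflects the cutoff as well as the spread between mice. Most of the differences described here were smaller than 1.5-fold. For members with few unique windows, H2A genes most, the effect of reads shared between genes was not tested.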
